A study of Mus musculus with 9 samples.

Results

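The genes described here encode ligands, binding proteins, receptors and Smads of activin and TGF-β signalling, and they were followed in basal epidermal cells around a healing wound. The list holds 10 genes (Inhba, Inhbb, Fst, Tgfb1, Tgfb2, Ltbp1, Tgfbr1, Tgfbr2, Smad3 and Smad7), taken by name with earlier results of these data known. A probe set was assigned to a gene when the platform annotation gave that symbol and no other. By this rule 9 of the 10 genes were measured, with 19 probe sets in all, among 17097 genes on the array, and Inhbb was not analysed here. The brightest probe set by its mean over the 9 arrays stood for its gene, and every other probe set is given as well.

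Activin A is a dimer of the βA chain that Inhba encodes, and TGF-β1 and TGF-β2 are its relatives. Both kinds of ligand bind pairs of type I and type II serine/threonine kinase receptors, which phosphorylate Smad2 and Smad3, and these enter the nucleus with Smad4. Follistatin binds activin and blocks it, latent TGF-β binding proteins hold TGF-β in the matrix in an inactive form, and Smad7 is an inhibitory Smad of a feedback loop. In skin, activin is known as an early wound signal, and TGF-β as an inhibitor of keratinocyte growth.

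The samples were taken at D4 after a 3 mm wound in the tail skin of CD1 mice. The leading edge (LE) samples were basal cells from a 4 mm punch around the wound, gated for the presence of α5 integrin. The samples of the proliferative hub were basal cells from a 6 mm punch, gated for its absence. Control samples were basal cells from tail skin far from the wound, with no α5 integrin gate named in their labels. All were positive for α6 integrin and negative for CD34, and each of the 3 samples per group held 300 sorted cells. The methods name a pool of 5 mice for duplicate samples, and the titles of these triplicates name no pool. LE and hub samples differed in both region and gate, so that region and gate cannot be told apart. The labels call the replicates biological and the methods call them technical, and p-values therefore measure the spread between these samples only.

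Signal is given on the log2 scale of the deposited values, where 1 unit is a factor of 2. Array medians lay between 6.47 and 6.53, and 0 pairs of arrays held identical values. The 23 probe sets for nonspecific background read 3.66 to 8.61 with a median of 4.66, and a level inside that range is not shown to be above background, so that a fold against it is uncertain. Basal keratinocyte markers, 6 genes including Krt5, Krt14 and Trp63, were all above it, with a summed level of 15.42 to 15.48 at the LE, 15.32 to 15.33 in the hub and 15.35 to 15.41 in control skin. Of these, 2 were called higher at the LE than in the hub by limma, and 4 were not called. The 2 were Itgb4 (0.38 ± 0.06, adjusted p = 0.00375) and Itga6, a gene of the sort (0.47 ± 0.06, adjusted p = 0.00162). Both were also called higher at the LE than in control skin (0.34 ± 0.06 and 0.69 ± 0.06). The summed level of 12 myeloid markers was 10.59, 9.68 and 10.36 in LE replicates 1 to 3, against 9.71 to 9.73 in the hub and 9.67 to 9.72 in control skin, and all 12 had a mean within the background range. The summed level of 5 suprabasal keratinocyte markers was 11.92 to 13.08 at the LE, 13.87 to 13.99 in the hub and 13.68 to 13.81 in control skin, and Krt1 (-1.73 ± 0.32, adjusted p = 0.00724) and Krt10 (-1.48 ± 0.22, adjusted p = 0.0028) were lower at the LE than in the hub. Ivl went the other way, at 8.33 to 8.67 at the LE and 8.13 to 8.32 in the hub (0.33 ± 0.14, limma adjusted p = 0.191). Ivl was called higher at the LE than in control skin (0.57 ± 0.14, adjusted p = 0.0161). Lor and Flg were not called in any comparison. The sum of 5 Langerhans cell markers was 10.45 to 11.04 at the LE, 9.67 to 9.96 in the hub and 10.12 to 10.29 in control skin, with the defining marker Cd207 at 5.02 to 5.39 at the LE, 5.22 to 5.36 in the hub and 5.24 to 5.44 in control skin. The sum of 5 T cell markers was 9.26 to 9.60 at the LE, 10.32 to 10.39 in the hub and 10.31 to 10.52 in control skin, with Cd3e at 4.94 to 5.01 at the LE, 4.88 to 5.003 in the hub and 4.90 to 5.04 in control skin. Between LE and hub, Thy1 was the T cell marker called (8.61 to 9.15 and 10.04 to 10.13), and 4 were not called. Of the Langerhans cell markers, H2-Ab1 (7.88 to 9.55 and 6.44 to 6.71) and Epcam (9.55 to 9.90 and 8.37 to 8.98) were called, and 3 were not. Means lay within the background range for 4 of the 5 T cell, 4 of the 5 Langerhans cell and 3 of the 5 suprabasal markers. The basal, suprabasal, Langerhans cell and T cell sums separated LE from hub on every array, as did several of the genes below, and their part in those differences was not tested.

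Itga5, the gene of the gate, averaged 9.11 at the LE, 6.92 in the hub and 6.40 in control skin. In samples of this kind fewer cells of a type and less RNA per cell cannot be told apart.

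The windows around the start sites of Inhba, Tgfb1 and Ltbp1 are shown because these were the ligand genes and the binding protein gene that rose, with that of Tgfb2 as the ligand gene that did not pass the test. Each runs from 250 bases before to 50 bases after a start site (RefSeq, GRCm38.p6), 5′ to 3′ on the strand of the gene. Capitals mark matches to the AP-1 motif TGACTCA, the cAMP response element TGACGTCA and the Smad core CAGAC on either strand, and to the TATA box TATAAA on the gene's strand. Windows were matched by symbol for 8 of the 10 genes.
Inhba, chr13:16011601-16011900, plus strand: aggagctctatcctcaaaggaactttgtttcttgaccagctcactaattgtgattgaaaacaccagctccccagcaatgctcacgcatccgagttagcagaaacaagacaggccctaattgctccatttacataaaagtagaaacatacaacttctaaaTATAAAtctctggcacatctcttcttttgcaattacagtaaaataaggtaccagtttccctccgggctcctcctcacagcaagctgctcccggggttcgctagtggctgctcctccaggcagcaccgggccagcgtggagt
Tgfb1, chr7:25686752-25687051, plus strand: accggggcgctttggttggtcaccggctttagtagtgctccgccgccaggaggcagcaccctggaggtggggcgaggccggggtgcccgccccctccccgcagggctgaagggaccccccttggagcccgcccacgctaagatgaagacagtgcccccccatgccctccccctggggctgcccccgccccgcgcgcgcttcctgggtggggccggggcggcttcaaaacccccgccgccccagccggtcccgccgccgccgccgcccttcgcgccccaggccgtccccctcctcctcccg
Ltbp1 upstream, chr17:75005279-75005578, plus strand: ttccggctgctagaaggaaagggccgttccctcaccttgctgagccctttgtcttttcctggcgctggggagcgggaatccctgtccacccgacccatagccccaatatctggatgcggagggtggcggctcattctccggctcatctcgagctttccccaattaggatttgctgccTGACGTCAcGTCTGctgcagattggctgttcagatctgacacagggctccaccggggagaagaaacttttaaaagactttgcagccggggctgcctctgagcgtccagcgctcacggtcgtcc
Ltbp1 downstream, chr17:75178531-75178830, plus strand: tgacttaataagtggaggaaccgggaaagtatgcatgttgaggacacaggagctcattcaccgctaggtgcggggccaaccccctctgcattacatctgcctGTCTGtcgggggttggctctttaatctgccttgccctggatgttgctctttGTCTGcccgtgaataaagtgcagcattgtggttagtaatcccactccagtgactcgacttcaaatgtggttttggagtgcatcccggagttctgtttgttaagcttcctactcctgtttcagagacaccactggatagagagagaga
Tgfb2, chr1:186705940-186706239, minus strand: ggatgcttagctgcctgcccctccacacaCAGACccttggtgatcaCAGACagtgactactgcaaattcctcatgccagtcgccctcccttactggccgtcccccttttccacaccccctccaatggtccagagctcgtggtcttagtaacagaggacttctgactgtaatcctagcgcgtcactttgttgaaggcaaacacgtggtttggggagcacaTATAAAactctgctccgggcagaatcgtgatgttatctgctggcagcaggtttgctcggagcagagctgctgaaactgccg
The Inhba window held a match to the TATA box letters that began 91 bases before the start site and none of the other 3 motifs. This start site, at 16011851, lay inside the gene, whose span begins at 16004256. The Tgfb2 start site, at 186705989 on the minus strand, also lay inside its gene, whose span reaches 186709697. The Tgfb1 window held none of the 4 motifs and was 77% G or C, against a median of 52.7% over 32851 windows. The upstream Ltbp1 window held the cAMP response element 73 bases before its start site and a Smad core at 64 bases, and the downstream window held 2 Smad cores. The Tgfb2 window held 2 Smad cores and a TATA box 31 bases before the start site. Of all windows, 5.2% held the AP-1 motif, 1.79% the cAMP response element, 49.6% the Smad core and 8.32% the TATA box. None of these 5 windows held the AP-1 motif, which says only that these letters are not in them.

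Inhba, the activin βA gene, was higher at the LE than in the hub and in control skin, and higher in the hub than in control skin. It read 11.85, 11.85 and 11.42 at the LE, 8.49, 9.31 and 9.06 in the hub and 6.46, 6.63 and 7.497 in control skin. All LE arrays lay above all hub arrays, and all hub arrays above all control arrays. The LE exceeded the hub by 2.76 ± 0.28 (log2 difference ± SE from limma, 6.75-fold, adjusted p = 0.000348). The LE exceeded control skin by 4.85 ± 0.28 (28.8-fold, adjusted p = 3.5e-06), and the hub exceeded control skin by 2.09 ± 0.28 (4.26-fold, adjusted p = 0.00264). All control arrays and hub replicate 1 read inside the background range. The other Inhba probe set read 5.28 to 5.66 over the 9 arrays, and its differences were 0.12 ± 0.10 between LE and hub and -0.13 ± 0.10 between hub and control skin. Between LE and control skin the 95% limits of that probe set were -0.22 to 0.21.

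**Figure D1:**
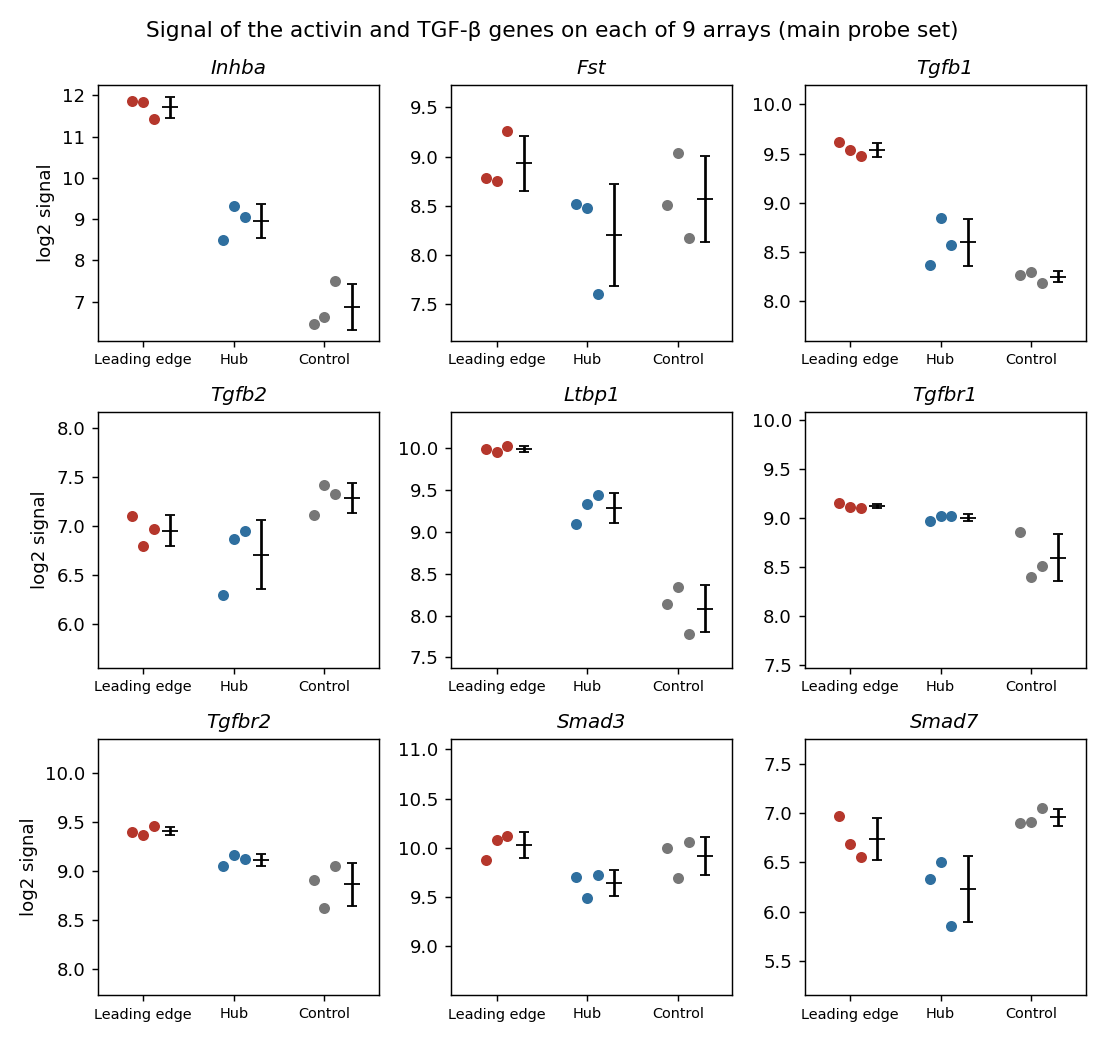
Log2 signal of the 9 measured genes on each array, with the LE left, the hub in the middle and control skin right (points are arrays, and the black bar is the mean ± SD, n = 3 per group). Inhba spans 6.46 to 11.85 in 3 separate steps, whereas Smad7 is lowest in the hub.

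Fst, which encodes the activin antagonist follistatin, did not pass the test in any comparison. It read 8.78, 8.75 and 9.26 at the LE, 8.52, 8.47 and 7.60 in the hub and 8.503, 9.04 and 8.17 in control skin. LE and hub did not overlap, while control skin overlapped both, and all arrays of the hub and control replicates 1 and 3 read inside the background range. The LE differed from the hub by 0.73 ± 0.28, with 95% limits of 0.10 to 1.36 (adjusted p = 0.151). The limits for LE against control skin were -0.27 to 0.99, and those for hub against control skin were -1.004 to 0.26. The other Fst probe set read 7.19, 7.08 and 7.69 at the LE, 6.76, 7.12 and 5.66 in the hub and 6.54, 7.18 and 5.76 in control skin. Replicate 3 was the lowest of the hub and of control skin with both probe sets. The SD within groups was 0.42 for Fst and 0.43 for Inhba, each at a rank of 98.7% among all genes, where the median gene had 0.12.

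Tgfb1, the gene for TGF-β1, was higher at the LE than in both other groups. It read 9.61, 9.54 and 9.47 at the LE, 8.37, 8.85 and 8.58 in the hub and 8.27, 8.30 and 8.18 in control skin. None of the 3 groups overlapped. The LE exceeded the hub by 0.94 ± 0.11 (1.92-fold, adjusted p = 0.000748) and control skin by 1.29 ± 0.11 (2.45-fold, adjusted p = 3.59e-05). The difference of 0.35 ± 0.11 between hub and control skin missed the threshold (adjusted p = 0.109), although it passed without hub replicate 1 (0.46, adjusted p = 0.0361). All control arrays and hub replicates 1 and 3 read inside the background range. The myeloid sum was raised in LE replicates 1 and 3 (10.59 and 10.36) and not in LE replicate 2 (9.68). The sum of 4 platelet markers was 9.43, 8.88 and 9.04 in LE replicates 1 to 3, 8.75 to 8.90 in the hub and 8.65 to 8.88 in control skin. That of 5 melanocyte markers was 8.31, 8.32 and 9.41, against 8.57 to 8.72 and 8.56 to 8.92. The sum of 8 endothelial markers was 11.13, 9.69 and 9.71 in LE replicates 1 to 3. It was 9.67, 10.30 and 10.20 in hub replicates 1 to 3 and 9.31 to 9.54 in control skin. All these platelet, melanocyte and endothelial markers had a mean within the background range. The part of these sums in the Inhba and Tgfb1 differences was not tested.

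Tgfb2, the gene for TGF-β2, had a different order, with the hub lowest and control skin highest by mean. It read 7.10, 6.79 and 6.96 at the LE, 6.30, 6.87 and 6.95 in the hub and 7.11, 7.41 and 7.33 in control skin. Every control array lay above all arrays of both wound groups, and the LE overlapped the hub. None of the differences passed the test, at 0.25 ± 0.17 for LE against hub (adjusted p = 0.466), -0.33 ± 0.17 for LE against control skin (adjusted p = 0.199) and -0.58 ± 0.17 for hub against control skin (adjusted p = 0.0713). All values lay inside the background range. The related ligand gene Tgfb3 read 6.31 to 7.27 at the LE, 6.34 to 7.10 in the hub and 5.503 to 6.71 in control skin.

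Ltbp1 encodes a latent TGF-β binding protein, and it had the same order of groups as Inhba. It read 9.99, 9.96 and 10.03 at the LE, 9.09, 9.33 and 9.45 in the hub and 8.14, 8.34 and 7.78 in control skin. The 3 groups did not overlap. The LE exceeded the hub by 0.70 ± 0.14 (1.63-fold, adjusted p = 0.0111) and control skin by 1.91 ± 0.14 (3.75-fold, adjusted p = 1.3e-05). The hub exceeded control skin by 1.21 ± 0.14 (2.31-fold, adjusted p = 0.00134). All control arrays read inside the background range. Among the 3 probe sets of Ltbp1, these differences came from the bright one. The others read 5.59 to 5.95 and 3.90 to 4.14 over the 9 arrays, with differences of 0.02 ± 0.10 and 0.11 ± 0.07 between LE and control skin. With the mean of the 3 probe sets, the difference between LE and hub was 0.26 and missed the threshold (adjusted p = 0.0621).

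The genes of the TGF-β receptors differed by less than 1 log2 unit between groups. Tgfbr1 encodes the type I receptor, and it read 9.15, 9.11 and 9.11 at the LE, 8.96, 9.02 and 9.02 in the hub and 8.86, 8.40 and 8.51 in control skin. The groups did not overlap, but only the LE differed from control skin by the test (0.53 ± 0.11, 1.44-fold, adjusted p = 0.00608). The hub differed from control skin by 0.41 ± 0.11 (adjusted p = 0.0508), which passed without control replicate 1 (0.55, adjusted p = 0.00489). Control replicates 2 and 3 read inside the background range. LE and hub differed by 0.12 ± 0.11, with 95% limits of -0.12 to 0.36. The other Tgfbr1 probe sets gave 0.37 ± 0.11 (adjusted p = 0.0777) and 0.39 ± 0.14 (adjusted p = 0.137) between LE and hub, with p-values adjusted over all 45037 probe sets. Against control skin they gave 0.32 ± 0.11 (adjusted p = 0.0698) and 0.73 ± 0.14 (adjusted p = 0.00492) at the LE. The probe set with 0.73 read inside the background range on all arrays. With the mean of the 3 probe sets the LE exceeded the hub by 0.29 (adjusted p = 0.0337).

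Tgfbr2 encodes the type II receptor, and it read 9.40, 9.37 and 9.45 at the LE, 9.05, 9.16 and 9.12 in the hub and 8.91, 8.63 and 9.05 in control skin. The LE lay above both other groups, which overlapped each other. The LE exceeded control skin by 0.54 ± 0.10 (1.46-fold, adjusted p = 0.00417). The difference of 0.30 ± 0.10 between LE and hub missed the threshold (adjusted p = 0.112), and it passed without control replicate 2 (adjusted p = 0.0352). Another Tgfbr2 probe set differed by 0.42 ± 0.19 between LE and control skin (adjusted p = 0.183). The dimmest read 4.40 to 4.79 over the 9 arrays, near the background median, and differed by 0.14 ± 0.10 (adjusted p = 0.425).

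Smad3, which encodes a Smad that carries both activin and TGF-β signals, gave an answer that depended on the probe set. The brightest read 9.87, 10.08 and 10.12 at the LE, 9.70, 9.49 and 9.72 in the hub and 10.002, 9.69 and 10.06 in control skin. It separated LE from hub on every array, by 0.39 ± 0.12 with an adjusted p of 0.0675 (limma), and passed without control replicate 2 (adjusted p = 0.0361). The second read 8.39, 8.72 and 8.59 at the LE, 7.98, 8.16 and 8.06 in the hub and 8.36, 8.06 and 8.05 in control skin. The third read 7.81, 8.004 and 7.99 at the LE, 7.22, 7.15 and 7.17 in the hub and 7.71, 6.94 and 7.47 in control skin. Both were higher at the LE than in the hub, by 0.498 ± 0.11 (adjusted p = 0.0271) and 0.75 ± 0.17 (adjusted p = 0.0232). They also exceeded control skin, by 0.41 ± 0.11 (adjusted p = 0.0315) and 0.56 ± 0.17 (adjusted p = 0.0418), where the brightest gave 0.11 ± 0.12 (adjusted p = 0.583). The third read inside the background range on all arrays, and the second on all but LE replicate 2. The mean of the 3 probe sets passed against the hub (0.55, adjusted p = 0.012) and against control skin (0.36, adjusted p = 0.0455).

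Smad7, the inhibitory Smad gene, was lowest in the hub. It read 6.97, 6.69 and 6.56 at the LE, 6.33, 6.504 and 5.85 in the hub and 6.90, 6.91 and 7.05 in control skin. The hub lay below both other groups, and LE and control skin overlapped. The hub was lower than control skin by a log2 difference of -0.73 ± 0.16 (adjusted p = 0.027). That call was lost without hub replicate 1 or 3 or any of the control replicates, in 5 of 9 fits, where the adjusted p reached 0.0762. The LE differed from the hub by 0.51 ± 0.16 (adjusted p = 0.0831), which passed without hub replicate 2 (0.65, adjusted p = 0.0471). LE and control skin differed by -0.22 ± 0.16, with 95% limits of -0.58 to 0.15. All values lay inside the background range, and Smad7 had 1 probe set.

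**Figure D2:**
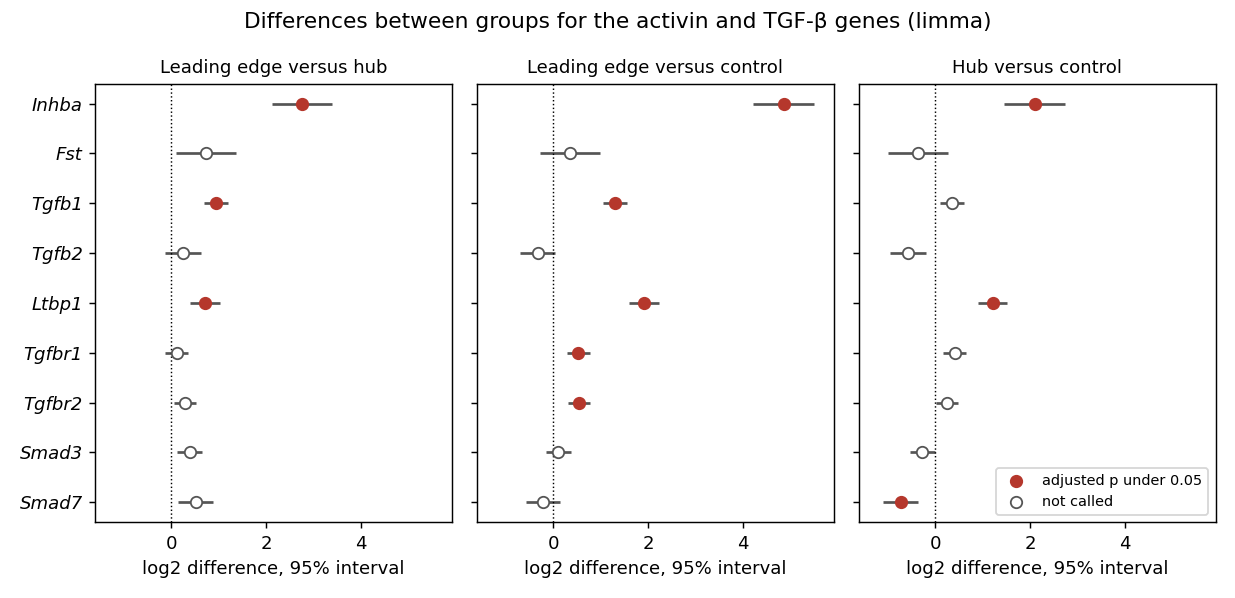
Log2 difference of each gene with its 95% interval in the 3 comparisons (filled points passed an adjusted p of 0.05 in limma). The Inhba intervals run from 2.12 to 3.39 for LE against hub and from 4.21 to 5.49 for LE against control skin, and Smad7 is the 1 filled point left of 0, for hub against control skin.

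Between LE and hub, 3 of the 9 genes rose (Inhba, Tgfb1 and Ltbp1) and 0 fell, or 33.3%, where 10.6% of all 17097 genes were called (5.39% higher and 5.23% lower). Their median difference was 0.51, against -0.01 over all genes. LE and hub did not overlap for 8 of the 9, all higher at the LE, where 14.5% of all genes were separate and higher and 15.4% separate and lower. Because the genes and lists were chosen with earlier results of these data known, the shares here and below only describe them. They are no test of the lists against all genes.

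Between LE and control skin, 5 of the 9 rose (Inhba, Tgfb1, Ltbp1, Tgfbr1 and Tgfbr2) and 0 fell, or 55.6%, where 22.8% of all genes were called (11.9% higher and 10.8% lower). The groups were separate for 6 genes, 5 higher and 1 lower (Tgfb2), where 20% of all genes were separate and higher and 16.2% separate and lower. Between hub and control skin, 2 rose (Inhba and Ltbp1) and 1 fell (Smad7), or 33.3%, where 7.28% of all genes were called (4.16% higher and 3.12% lower). The groups were separate for 6 genes, 4 higher and 2 lower (Tgfb2 and Smad7), where 14.4% of all genes were separate and higher and 9.41% separate and lower.

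Inhba and Ltbp1 were higher in all 3 comparisons and were among 239 such genes (1.4% of all). These comparisons share arrays and are not independent of each other. The fold rule of the study's methods, more than 2-fold in each replicate, was read here as each same-numbered pair. By that rule Inhba passed between LE and hub (1.04% of all genes), Inhba, Tgfb1 and Ltbp1 passed between LE and control skin (3.01%), and Inhba passed between hub and control skin (0.521%).

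**Figure D3:**
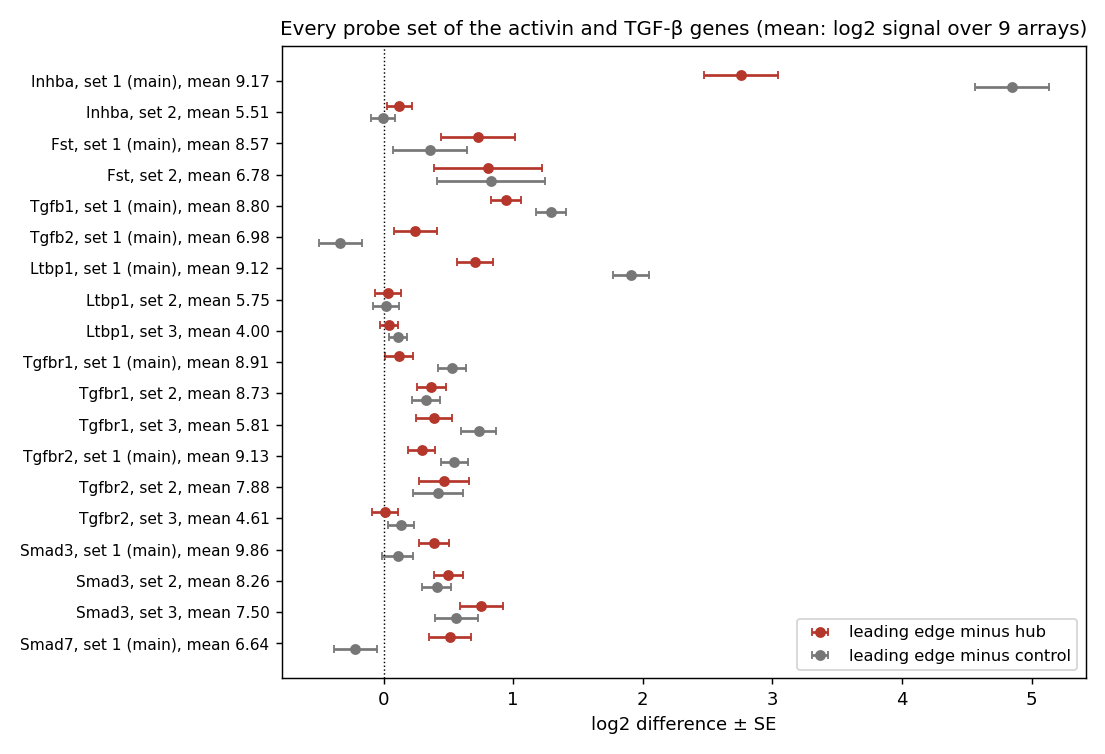
Log2 difference ± SE for each of the 19 probe sets, for LE minus hub and LE minus control skin (row names give the mean log2 signal over 9 arrays). The second Inhba probe set and the dim Ltbp1 probe sets lie near 0, and the 3 Smad3 probe sets lie between 0.39 and 0.75 for LE minus hub.

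Genes listed with TGF-β latency and activation changed in both directions. Of the 7 latency proteins and activators measured, 2 rose and 2 fell at the LE against the hub, 3 rose and 2 fell against control skin, and 0 rose and 2 fell in the hub against control skin, where 10.6%, 22.8% and 7.28% of all genes were called in these comparisons. The median differences were 0.26, 0.11 and -0.15, against -0.01, 0.02 and 0.03 over all genes. Itgb6 encodes the β subunit of αvβ6, the epithelial integrin that activates latent TGF-β. It read 9.51, 9.78 and 9.42 at the LE, 8.17, 8.005 and 8.12 in the hub and 8.36, 8.44 and 8.59 in control skin. The LE was higher than control skin by 1.10 ± 0.11 (adjusted p = 6.93e-05) and than the hub by 1.47 ± 0.11 (adjusted p = 4.75e-05), and 1 of its 2 probe sets was called against control skin. All hub and control arrays read inside the background range with the main probe set. The hub differed from control skin by -0.37 ± 0.11 (adjusted p = 0.0757) with this probe set, and the other gave -1.46 and was called lower. Itgav, which encodes the partner chain, read 10.59 to 10.74 at the LE, 10.31 to 10.48 in the hub and 10.42 to 10.61 in control skin.

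Ltbp3 and Ltbp4, relatives of Ltbp1, were lowest at the LE. Ltbp4 read 10.09, 9.86 and 9.92 at the LE, 11.08, 11.06 and 11.03 in the hub and 11.35, 11.46 and 11.53 in control skin. The LE was lower than the hub by a log2 difference of -1.10 ± 0.08 (adjusted p = 5.1e-05) and lower than control skin by -1.495 ± 0.08 (adjusted p = 2.11e-06). Ltbp3 was lower at the LE as well, by -0.59 ± 0.10 against the hub (adjusted p = 0.00593) and by -1.03 ± 0.10 against control skin (adjusted p = 8.96e-05), with 1 of its 3 probe sets called. In the hub against control skin, Ltbp4 was lower by -0.39 ± 0.08 (adjusted p = 0.0192), a call lost without hub replicate 2 or 3 or control replicate 3, where the adjusted p reached 0.0736. Ltbp3 was lower there by -0.44 ± 0.10 (adjusted p = 0.0339), and 7 of 9 fits that left out 1 array lost the call, all but those without hub replicate 1 or control replicate 3, with the adjusted p as high as 0.122. Ltbp2 was dim, at 5.06 to 5.21 at the LE, 4.66 to 4.82 in the hub and 4.52 to 4.79 in control skin, and rose at the LE by 0.46 ± 0.09 over control skin (adjusted p = 0.00409) and by 0.39 ± 0.09 over the hub (adjusted p = 0.0207), the second lost without LE replicate 1 or 2 or hub replicate 2 or 3, where the adjusted p reached 0.0797.

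Co-receptors and other receptors of the family were also uneven. Of 8 receptors and co-receptors, 1 rose and 2 fell at the LE against the hub, 1 rose and 3 fell against control skin, and 0 rose and 0 fell in the hub against control skin (limma), where 10.6%, 22.8% and 7.28% of all genes were called in these comparisons. The median differences were -0.06, -0.32 and 0.07, against -0.01, 0.02 and 0.03 over all genes. In the hub against control skin an unadjusted p under 0.05 was reached by 1 lower gene and 0 higher genes. Tgfbr3 encodes betaglycan, which presents TGF-β2 to its receptors, and it read 8.52, 8.58 and 8.70 at the LE, 9.53, 9.51 and 9.36 in the hub and 9.42, 9.19 and 9.53 in control skin. The LE was lower than the hub by -0.87 ± 0.10 on the log2 scale (adjusted p = 0.0006) and lower than control skin by -0.78 ± 0.10 (adjusted p = 0.00039), with 2 of 2 probe sets called. LE replicates 1 and 2 read inside the background range. Acvr1, a type I receptor gene, was higher at the LE than in control skin by 0.57 ± 0.10 (adjusted p = 0.00226). Its rise of 0.44 ± 0.10 over the hub (adjusted p = 0.0186) was lost without LE replicate 2 (adjusted p = 0.0668) or 3 (adjusted p = 0.0609). In the fit of all probe sets, 1 of the 3 Acvr1 probe sets was called in each of these comparisons. The 3 gave 0.49 to 0.57 against control skin and 0.44 to 0.65 against the hub.

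Acvr1b, which encodes a type I receptor of activin, read 7.48, 8.20 and 7.65 at the LE, 8.41, 8.55 and 8.58 in the hub and 8.53, 8.72 and 8.04 in control skin. It was lower at the LE than in the hub by -0.74 ± 0.20 (adjusted p = 0.0499) and than in control skin by -0.65 ± 0.20 (adjusted p = 0.0459). All arrays but control replicate 2 read inside the background range. In the fit of all probe sets, 0 of the 2 Acvr1b probe sets were called in either comparison. Leaving out 1 array lost the call in 6 of 9 fits against the hub, all but those without LE replicate 2 or control replicate 2 or 3, and in 7 of 9 against control skin, all but those without LE replicate 2 or control replicate 3, and the adjusted p reached 0.158 and 0.15. Bambi, a decoy receptor gene, was lower at the LE than in control skin by -0.51 ± 0.13 (adjusted p = 0.0186), which was lost without LE replicate 2 or control replicate 2 or 3, where the adjusted p reached 0.0719. All Bambi values lay inside the background range.

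**Figure D4:**
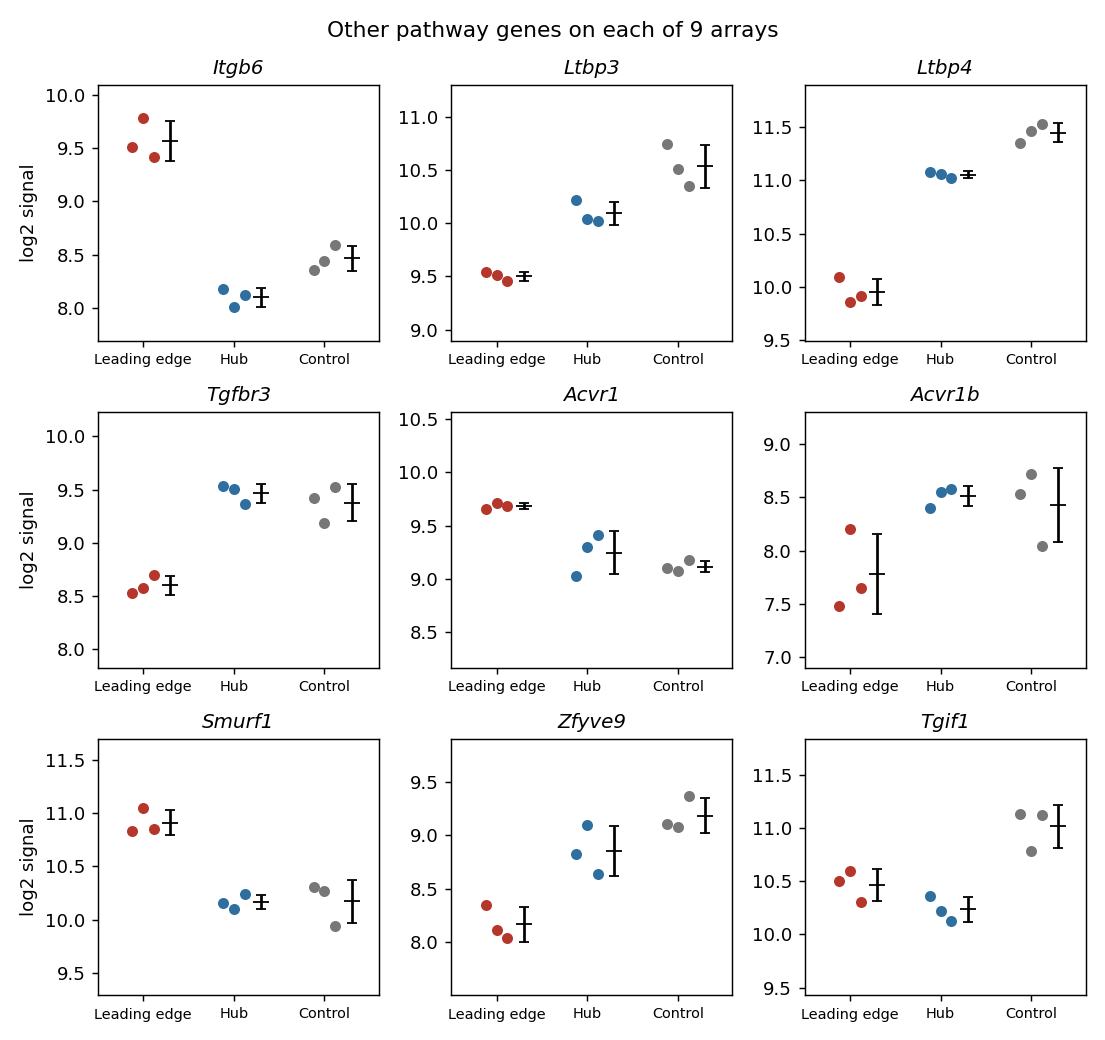
Log2 signal of 9 other pathway genes on each array, picked among those that passed a test, with the LE left, the hub in the middle and control skin right (points are arrays, and the black bar is the mean ± SD, n = 3 per group). Itgb6 is highest at the LE, Ltbp4 and Tgfbr3 are lowest there, and Tgif1 is highest in control skin.

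Among 18 Smads and their regulators, 1 rose and 2 fell at the LE against the hub, 3 rose and 4 fell against control skin, and 2 rose and 1 fell in the hub against control skin, where 10.6%, 22.8% and 7.28% of all genes were called in these comparisons. The median differences were 0.12, -0.08 and -0.11, against -0.01, 0.02 and 0.03 over all genes. Smurf1, a ubiquitin ligase that targets Smads and receptors, read 10.84, 11.05 and 10.85 at the LE, 10.16, 10.10 and 10.24 in the hub and 10.30, 10.27 and 9.94 in control skin. It rose at the LE by 0.74 ± 0.11 over the hub (adjusted p = 0.00207) and by 0.74 ± 0.11 over control skin (adjusted p = 0.00085). Zfyve9, which encodes the Smad anchor SARA, was lower at the LE by -0.69 ± 0.14 against the hub (adjusted p = 0.0105) and by -1.02 ± 0.14 against control skin (adjusted p = 0.000501). All LE arrays of Zfyve9 read inside the background range. Tgif1, a nuclear corepressor of Smads, was lower than control skin at the LE (-0.55 ± 0.12, adjusted p = 0.00842) and in the hub (-0.78 ± 0.12, adjusted p = 0.00467). Its relative Tgif2 was lower at the LE than in control skin (-0.59 ± 0.11, adjusted p = 0.00416). All Tgif2 values lay inside the background range.

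Ski, another corepressor gene, was lower at the LE than in the hub by -0.27 ± 0.07 (adjusted p = 0.0425), and leaving out any 1 of the 9 arrays lost this call (adjusted p = 0.0528 to 0.133). It was also lower at the LE than in control skin, by -0.43 ± 0.07 (adjusted p = 0.00189), which was lost in 0 of the 9 fits. In the fit of all probe sets, 1 of the 2 Ski probe sets was called against control skin and 0 against the hub. The other Ski probe set gave -0.10 and 0.02 in these comparisons. Strap and Fkbp1a, whose products bind the receptors, rose at the LE over control skin by 0.51 ± 0.09 (adjusted p = 0.00282) and 0.48 ± 0.07 (adjusted p = 0.000988), calls lost in 0 of the 9 fits. They rose in the hub over control skin by 0.38 ± 0.09 (adjusted p = 0.0367) and 0.30 ± 0.07 (adjusted p = 0.0331). Both rises in the hub were lost in 7 of the 9 fits that left out 1 array, those of Strap in all but the fits without hub replicate 3 or control replicate 2, and those of Fkbp1a in all but the fits without LE replicate 1 or hub replicate 1. The adjusted p reached 0.126 for Strap and 0.117 for Fkbp1a. The main probe sets of Smad2 and Smad4 were not called in any comparison, and that of Smad2 read 9.36 to 9.45 at the LE, 9.04 to 9.30 in the hub and 9.04 to 9.24 in control skin. Of the others, 1 of the 2 Smad2 probe sets was called lower at the LE than in control skin (-0.47, where the main one gave 0.23 ± 0.09), and 1 of the 3 of Smad4 was called lower there.

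Of 13 genes often cited as TGF-β targets, 3 rose and 1 fell at the LE against the hub, 4 rose and 2 fell against control skin, and 0 rose and 2 fell in the hub against control skin, where 10.6%, 22.8% and 7.28% of all genes were called in these comparisons. The median differences were 0.23, 0.15 and 0.07, against -0.01, 0.02 and 0.03 over all genes. Tgfbi, a matrix protein named for its induction by TGF-β, read 12.39, 12.41 and 12.44 at the LE, 11.95, 11.94 and 11.997 in the hub and 11.90, 11.94 and 11.87 in control skin. It rose by 0.45 ± 0.06 over the hub (adjusted p = 0.00136) and by 0.51 ± 0.06 over control skin (adjusted p = 0.000246). Cdkn1a, a cell cycle inhibitor gene, was separate at the LE too, at 12.35 to 12.42 at the LE, 11.89 to 11.94 in the hub and 11.95 to 12.03 in control skin. Klf10, an early response gene of TGF-β, rose over control skin at the LE by 0.40 ± 0.08 (adjusted p = 0.00689).

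Fn1, which encodes fibronectin, read 11.42, 8.16 and 9.17 at the LE, 5.92, 7.61 and 6.12 in the hub and 6.54, 5.93 and 6.42 in control skin. The LE value of 8.16 and all hub and control values lay inside the background range. Fn1 at the LE exceeded control skin by 3.29 ± 0.73 (adjusted p = 0.00963) and the hub by 3.03 ± 0.73 (adjusted p = 0.0273), the second lost without LE replicate 3 or hub replicate 1 or 3, where the adjusted p reached 0.0959. It was highest in LE replicate 1, which also had the highest myeloid sum and the highest sum of 8 endothelial markers (11.13, against 9.69 and 9.71 in the other LE replicates, 9.67 to 10.30 in the hub and 9.31 to 9.54 in control skin). All 8 endothelial markers had a mean within the background range, and their part in the Fn1 value was not tested.

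Other genes of this list fell in 1 or more comparisons. Cdkn2b, a cell cycle inhibitor gene that TGF-β induces in epithelial cells, read 6.68, 7.01 and 6.77 at the LE, 7.36, 7.90 and 7.62 in the hub and 7.38, 6.74 and 6.67 in control skin. It was lower at the LE than in the hub by -0.81 ± 0.20 (adjusted p = 0.0298), a call lost without LE replicate 1 or 3 or hub replicate 2 or 3, where the adjusted p reached 0.108. The hub had the highest mean, and differed from control skin by 0.70 ± 0.20 (adjusted p = 0.0683). All Cdkn2b values lay inside the background range. Bhlhe40, a transcriptional repressor gene, was lower than control skin at the LE (-0.60 ± 0.09, adjusted p = 0.00123) and in the hub (-0.88 ± 0.09, adjusted p = 0.000726). Col7a1, the gene of the collagen of anchoring fibrils, was lower in the hub than in control skin (-0.48 ± 0.07, adjusted p = 0.00391). It was also lower at the LE than in control skin (-0.25 ± 0.07, adjusted p = 0.0292). That call was lost without LE replicate 1, 2 or 3 or control replicate 1 or 2, where the adjusted p reached 0.0755.

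Of 10 other ligands and antagonists of the family, 0 rose and 0 fell in each comparison (limma), where 10.6%, 22.8% and 7.28% of all genes were called in these comparisons. The median differences were 0.04, 0.03 and 0.004, against -0.01, 0.02 and 0.03 over all genes. An unadjusted p under 0.05 was reached by 2 genes, both higher, between LE and control skin and by 0 genes between LE and hub and between hub and control skin. Fstl3, a relative of follistatin, read 10.27 to 10.39 at the LE, 10.14 to 10.43 in the hub and 10.26 to 10.57 in control skin.

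For Inhba, Tgfb1 and Ltbp1, each called in at least 2 comparisons, the genes with the most similar pattern were sought by Pearson correlation over the 9 arrays among 856 genes whose group means spanned at least 1 log2 unit. Closest to Inhba were Ap3s1 (r = 0.994), Ubash3b (r = 0.993) and Ppard (r = 0.992). Closest to Tgfb1 were Cmas (r = 0.995), Itga5 (r = 0.989) and Hmga2 (r = 0.988), of which Itga5 is the gene of the gate. Closest to Ltbp1 were Mapk6 (r = 0.992), Steap1 (r = 0.990) and Sorcs2 (r = 0.990). The arrays fall into 3 groups, and these values describe mainly the order of the groups.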

How the data were processed

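RNA from 300 basal cells per sample was amplified as cDNA and hybridised to Affymetrix mouse genome arrays. The authors normalised the arrays with RMA, and the deposited values are log2 signals per probe set. RMA gives the arrays a shared distribution, so a change in total RNA cannot be seen. Separately, differences of dim genes are compressed. The sources used here do not give the version of RMA. The number of arrays (3 per group) limits the precision.

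Of 45141 probe sets, 28898 had 1 gene symbol in the platform annotation, for 17097 genes. The values of the 9 arrays were fitted together by group in limma 3.58.1 (R 4.3.3, lmFit and eBayes), with two-sided tests and Benjamini-Hochberg adjustment over all genes at 0.05. Probe sets other than the main one were tested in a fit of all 45037 that are not controls. The model was tested on simulated data. The genes and lists were chosen with earlier results of these data known. Named genes were the 10 listed, up to 4 called genes per pathway list and comparison with the largest differences, and, for each listed gene called in at least 2 comparisons, the 3 genes closest in pattern. Tgfb3, Itgav, Smad2, Smad4 and Fstl3 were named after their values were seen. Alternatives were other uses of several probe sets, a replicate block, a filter on dim genes, other scalings, a variance trend, fits on 6 arrays, the fold rule of the methods and leaving out each array.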

Additional observations from a re-analysis of the deposited data

How the results depend on the processing

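In the order LE against hub, LE against control skin and hub against control skin, 1816, 3891 and 1244 genes were called, with 3, 5 and 3 of the listed genes. Testing every probe set alone gave 3579, 8693 and 2609 calls, since more features were tested. The fold rule of the methods gave 178, 515 and 89 genes, with 1, 3 and 1 of the listed genes. With only the 6 arrays compared, 5 listed genes were called for LE against hub (Tgfbr2 and Smad3 in addition), and 766 genes for hub against control skin. Leaving out 1 array gave 3 to 5 listed genes and 1225 to 1961 genes for LE against hub, 5 listed genes and 3008 to 3691 genes for LE against control skin, and 2 to 3 listed genes and 699 to 1153 genes for hub against control skin, lowest without hub replicate 3 (699) and hub replicate 2 (774). Same-numbered arrays of different groups correlated between -0.18 and 0.08 in their deviations from the group means, so the numbers were not taken to pair the samples. With a replicate block, 1629, 3661 and 1006 genes were called, with 3, 5 and 3 listed genes. No called difference of a listed gene changed sign in any of these fits, and Inhba was called in all 3 comparisons whichever array was left out. Among main probe sets, levels inside the background range limit Smad7 and Tgfb2 on all arrays, Inhba, Tgfb1 and Ltbp1 in control skin, Fst in the hub, and some arrays of Inhba and Tgfb1 in the hub and of Fst and Tgfbr1 in control skin. Of the Smad3 probe sets that were called, the third read inside that range on all arrays and the second on all but LE replicate 2.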
